A study of Mus musculus with 16 samples.

Results

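The Ppp1r17 neurons described here were 293 cells of the mouse hypothalamus and preoptic area (hypothalamus-POA), out of 9679 neurons and 55675 cells kept in 16 Drop-seq libraries. Drop-seq reads the 3′ end of each transcript and counts molecules by unique molecular identifiers (UMIs). A barcode was kept as a cell when it had 201 to 3999 genes and under 15% of its UMIs on mitochondrial genes. A kept cell was called a neuron when at least 3 of 8 panel genes (Snap25, Syt1, Stmn2, Snhg11, Meg3, Celf4, Map1b, Ndrg4) were detected, and a Ppp1r17 neuron when it also carried at least 2 UMIs of Ppp1r17. The cells were thus chosen by their UMIs of Ppp1r17, the panel genes and mitochondrial genes, and these are given below only as a description. The cells made up 3.03% of the neurons and 0.526% of all kept cells, with 6 to 42 cells per library, and the remaining 9386 neurons served as the comparison.

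The study asked how tamoxifen acts on the female hypothalamus-POA and whether that action needs estrogen receptor alpha, encoded by Esr1. Each library came from 1 female mouse on a CD-1;129P2 mixed background, 8 to 10 weeks old at the start. Wild-type mice were Cre-negative littermates, and Esr1 cKO mice carried the floxed Esr1 allele with a BAC transgene that drives Cre from Nkx2-1. The 4 groups were wild-type oil (3 libraries), wild-type tamoxifen (5), Esr1 cKO oil (4) and Esr1 cKO tamoxifen (4), given 0.1 mg/kg tamoxifen or the corn oil vehicle subcutaneously every day for 28 days and killed 2 hr after the last injection. Because Cre acted only in the Nkx2-1 lineage while the whole hypothalamus-POA was dissociated, some neurons of an Esr1 cKO library lie outside the deleted lineage.

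PPP1R17, also called G-substrate, is a small cytosolic protein that cGMP-dependent protein kinase phosphorylates, after which it inhibits protein phosphatases. It is best known from cerebellar Purkinje cells, and in the hypothalamus it marks neurons of the dorsomedial nucleus, a region that takes part in feeding, body temperature, daily activity and stress responses. Hypothalamic neurons are usually sorted by fast transmitter, glutamate or GABA, and by the neuropeptide precursors they make. In GRCm38 the gene lies on the plus strand at chr6:56017497-56032689.

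A pair of libraries stood apart, wild-type oil 3 and Esr1 cKO tamoxifen 3. On the first principal component of the other neurons' log2 CPM (UMIs of a gene scaled to a fixed total over the summed cells), which held 45.4% of the variance, these libraries were at 111 and 106, whereas the other 14 lay between -36.1 and -3.998. Their deposited matrices differed too: no barcode held fewer than 100 genes, against 20 in the other 14, and 21188 and 21783 genes were listed, against 22700 to 24332. They supplied 76 of the 293 Ppp1r17 neurons (25.9%). Libraries also shared cell barcodes: 1717 kept cells carried a barcode kept in another library, and 1473 of them were in the 4 libraries numbered 13 to 16 (wild-type tamoxifen 4 and 5, Esr1 cKO oil 4 and Esr1 cKO tamoxifen 4). In those 4 libraries the median correlation across genes was 0.610 between cells with the same barcode and 0.159 between cells with different barcodes, as a description of 1973 same-barcode pairs. Only 11 Ppp1r17 neurons carried a shared barcode, from 4 distinct barcodes. Results are given with and without these libraries and cells where they bear on them.

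Ppp1r17 itself summed to 900 UMIs in the Ppp1r17 neurons, or 991 CPM over the summed cells, with at most 13 UMIs in a cell. Per library its level ran from 660 CPM through a median of 971 to 1365 CPM, against 15.6, 23.1 and 34.9 CPM in the other neurons. Outside neurons the gene was close to absent, since 61 of 45996 kept cells that were not neurons had 1 UMI and 3 had at least 2. At the threshold itself, 506 neurons had 1 UMI of Ppp1r17 and were left out, 148 had 2 and were kept, 70 had 3 and 75 had 4 or more.

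Cells just inside and just outside the threshold differed by degree. Pdyn, the precursor of dynorphin, stood at 51.0 CPM in neurons with no Ppp1r17 UMI, 113 with 1, 127 with 2, 301 with 3 and 517 with 4 or more. Trhr, the receptor for thyrotropin-releasing hormone, followed the same order at 24.5, 31.1, 47.7, 128 and 145 CPM. Gal, the galanin precursor, did not: it was 421, 1195, 1972, 1481 and 1035 CPM, highest at 2 UMIs. Slc17a6, the vesicular glutamate transporter VGLUT2, was 178, 155, 191, 261 and 455 CPM, while Gad2, a GABA-synthesizing enzyme, was 502, 568, 547, 402 and 261 CPM. The cells at the threshold thus had more Gad2 and less Pdyn and Slc17a6 than cells with 4 or more UMIs, whereas Gal was higher in summed level but was carried by 23.6% of cells at 2 UMIs, 34.3% at 3 and 25.3% at 4 or more. Median depth was 1653 UMIs at 0, 2387 at 1 and 2580 at 2 UMIs of Ppp1r17, so detection of the gene also moved with depth.

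The Ppp1r17 neurons were deeper than other neurons, with a median of 2720 against 1704 UMIs and 1705 against 1175 genes per cell. At least 6 of the 8 panel genes were found in 252 of them (86.0%) but in 52.3% of the other neurons, so the other neurons held more cells with few panel genes. The comparison between classes was therefore repeated on cells with at least 6 panel genes, an alternative chosen after seeing the data.

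The label's other markers, Pdyn, Grp and Fhl2, were present in a minority of the cells. Pdyn was found in 98 of 293 (33.4%, 95% exact binomial interval 28.1 to 39.2%), against 5.47% of other neurons and 0.421% of oligodendrocyte-like cells, which should lack it and had a median of 798 UMIs. With every cell thinned to 500 UMIs, which 1 Ppp1r17 neuron and 1039 other neurons did not reach, Pdyn was found in 11.3% and 1.91%. Fhl2, a LIM-domain adaptor protein, was found in 35 cells (11.9% against 1.77% of other neurons and 0.421% of oligodendrocyte-like cells), and Grp, the gastrin-releasing peptide precursor, in 26 cells (8.87% against 2.57% and 0.232%). Most cells, 174 of 293 (59.4%), had none of these 3 markers, 83 had 1, 32 had 2 and 4 had all 3. At a median of 2720 UMIs a transcript that is present can go uncounted. The cells are named here by their rule, and the markers did not show them to be 1 cell type.

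**Figure D1:**
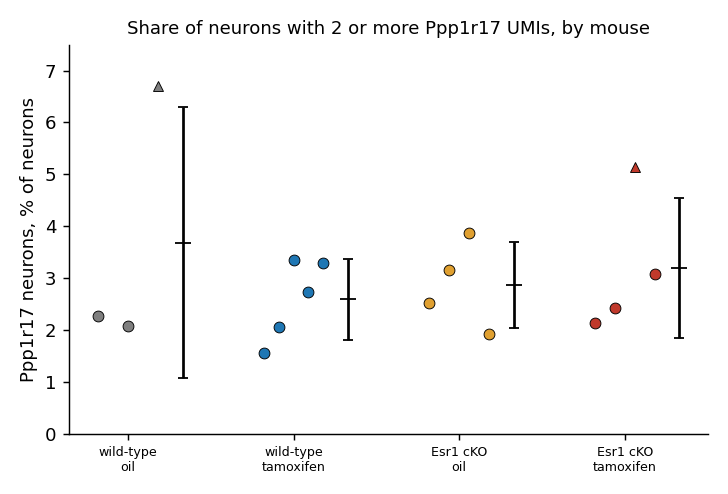
Share of neurons that were Ppp1r17 neurons in each library (y axis, percent), by group (x axis). Points are libraries, triangles are the 2 libraries that stood apart, and bars are the mean ± SD. The triangles, at 6.71% and 5.14%, lie above all 14 circles, the highest of which is at 3.87%.

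Ppp1r17 neurons were compared with other neurons of the same library. Of 6465 genes tested, 195 were higher (3.02%) and 465 lower (7.19%) at adjusted p below 0.05 in edgeR's quasi-likelihood test with library as a block, with a median log2 difference over all genes of -0.04. Pdyn (chr2:129686565-129699844, minus strand) had the largest difference of the 12 genes named by a size rule, at 274 CPM in Ppp1r17 neurons and 55.1 CPM in other neurons (log2 difference 2.18, SE 0.17, edgeR adjusted p=4.20e-17). Per library Pdyn ran from 94.3 through a median of 239 to 414 CPM in Ppp1r17 neurons and from 25.3 through 50.3 to 92.5 CPM in other neurons. The ranges did not overlap, and Pdyn was higher in 16 of 16 libraries.

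Trhr, Oprk1 and Trpc5, named by the same rule, encode receptors and a channel. Trhr (chr15:44196135-44235912, plus strand) was at 93.6 against 24.9 CPM (log2 difference 1.90, SE 0.26, edgeR adjusted p=4.09e-08) and was higher in 15 of 16 libraries. Its library values ran from 0 through 77.1 to 186 CPM in Ppp1r17 neurons and from 10.8 through 19.8 to 44.6 CPM in other neurons, with Esr1 cKO oil 1 at 0. Oprk1, the kappa-opioid receptor on which dynorphin acts, was 1.10 higher on the log2 scale in 15 of 16 libraries, and Trpc5, a cation channel, 1.15 higher in 15. These differences kept their call without the libraries that stood apart, at 2.09 for Trhr, 0.93 for Oprk1 and 1.23 for Trpc5. With at least 3 UMIs of Ppp1r17 per cell, Oprk1 (0.79) and Trpc5 (0.71) lost it.

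Of the named genes 3 encode transcription factors. Prox1 (chr1:190118035-190170714, minus strand), a homeobox factor of neuronal differentiation, was at 112 against 43.3 CPM (log2 difference 1.32), Nkx2-1, a factor of ventral hypothalamic identity whose regulatory sequence drives Cre in this study, at 66.1 against 28.6 CPM (1.14), and Rorb, an orphan nuclear receptor, at 293 against 138 CPM (1.03). Prox1 and Nkx2-1 were higher in 14 of 16 libraries and Rorb in 15. Nkx2-1 lost its call with at least 3 UMIs of Ppp1r17 per cell (0.95). Nkx2-1 was listed at 0 in the Ppp1r17 neurons of wild-type oil 1 and Esr1 cKO tamoxifen 2, and its highest library was at 124 CPM.

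Further named genes had other roles. Peg10 (chr6:4747306-4760517, plus strand), an imprinted gene derived from a retrotransposon, was at 340 against 138 CPM (log2 difference 1.17, higher in 16 of 16 libraries), and its library ranges, 186 to 532 and 80.8 to 185 CPM, just missed each other. Tub, the tubby gene, whose loss causes late-onset obesity in mice, was 1.15 higher in 16 of 16 libraries, Gstm7, a glutathione transferase, 1.31 higher in 14, and Chodl, a C-type lectin-like membrane protein, 1.21 higher in 14. None of the 12 genes that the rule names lost its call when the libraries that stood apart, or the cells with shared barcodes, were left out.

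**Figure D2:**
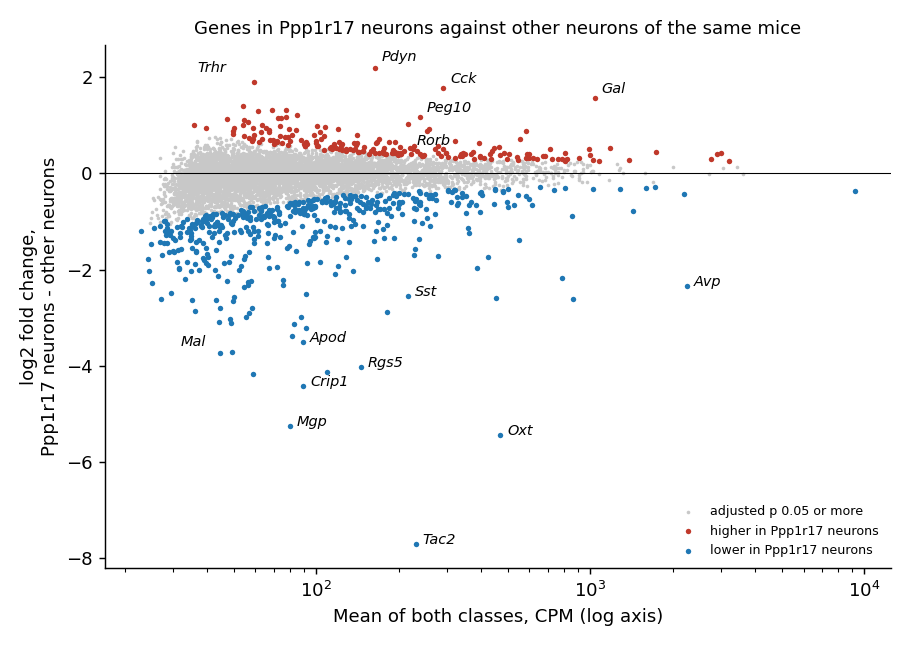
Log2 difference between Ppp1r17 neurons and other neurons (y axis) against the mean level of both classes (x axis, CPM, log scale) for the genes tested. Genes at adjusted p below 0.05 in edgeR are red where higher and blue where lower. Pdyn at 2.18 lies highest among the named genes and Tac2 at -7.72 lowest.

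Among 37 neuropeptide precursors, 16 were tested, of which 3 were higher, 7 lower and 6 not past the threshold, with a median of -0.58, while 3.02% of all genes were higher and 7.19% lower. The 3 higher were Pdyn, Cck and Gal. Cck, cholecystokinin, was at 459 against 123 CPM (log2 difference 1.77, SE 0.19, edgeR adjusted p=3.53e-11) and Gal at 1601 against 473 CPM (1.56, SE 0.19, edgeR adjusted p=6.62e-10). These peptides were far less even than Pdyn: Cck ran from 0 through 358 to 1608 CPM across libraries and Gal from 0 through 1132 to 5290 CPM, and each was higher in 12 of 16 libraries. With at least 3 UMIs of Ppp1r17 per cell the Gal difference was 0.29 and was not called. Both were carried by a minority of cells, Cck by 67 and Gal by 78.

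The 7 lower precursors were Tac2 (neurokinin B), Oxt (oxytocin), Avp (vasopressin), Sst (somatostatin), Npy (neuropeptide Y), Tac1 (substance P) and Pnoc (nociceptin). Tac2 was nearly absent, with 2 UMIs in all 293 cells, or 2.20 CPM (exact Poisson interval 0.267 to 7.95 CPM), against 459 CPM in other neurons. By library Tac2 ran from 49.95 through 197 to 1358 CPM in other neurons. Its means there were 72.8 CPM in wild-type oil, 182 in wild-type tamoxifen, 442 in Esr1 cKO oil and 923 in Esr1 cKO tamoxifen. It was lower in 16 of 16 libraries (log2 difference -7.72, edgeR adjusted p=4.35e-32). Both UMIs were in Esr1 cKO oil 3, and leaving out 1 library at a time moved the Tac2 difference from -11.3 to -7.11. Oxt was at 19.8 against 920 CPM (-5.44) and no cell held more than 1 of its 18 UMIs. It was found in 6.14% of Ppp1r17 neurons and 3.94% of oligodendrocyte-like cells. Avp was at 916 against 3592 CPM (-2.34) and differed widely between libraries, from 0 through 479 to 2903 CPM in Ppp1r17 neurons and from 1279 through 3043 to 13240 CPM in other neurons. The log2 difference was -2.54 for Sst, -2.10 for Npy, -1.35 for Tac1 and -1.01 for Pnoc. Single libraries moved these differences. Of the 87 Sst UMIs 84 were in 1 cell of wild-type oil 3, without which the Sst difference was -6.51. Without wild-type tamoxifen 3 the Tac1 difference was -2.44. With 1 library left out at a time, the Npy difference ran from -2.91 to -1.82 and that of Pnoc from -1.14 to -0.88. The calls of Sst, Npy and Tac1 were kept in all 16 fits that each left out 1 library and that of Pnoc in 14.

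Of the genes that process and store peptides, 11 were tested, with Scg2, secretogranin II (log2 difference 0.42), and Pam, an amidating enzyme (0.36), higher, and Cpe, carboxypeptidase E (-0.30), lower. The median was 0.11, and of all genes 3.02% were higher and 7.19% lower. None of the 3 kept its call among cells with at least 6 panel genes.

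Of 22 receptors for energy signals and peptides, 9 were tested and 3 were higher, Trhr, Oprk1 and Npy2r, the neuropeptide Y receptor Y2 (log2 difference 1.07, higher in 13 of 16 libraries), with a median over the list of -0.16, against 3.02% of all genes higher. Leptin receptor, Lepr, was found in 4 Ppp1r17 neurons, Mc4r, a melanocortin receptor, in 9 and the ghrelin receptor Ghsr in 1, and these 3 were too low to be tested.

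Among 9 genes of the dorsomedial nucleus, 3 passed the filter on low counts, Trhr, Cck and Nkx2-1, which are described above. The other 6 were too low to be tested, and Gpr50 stood at 13.2 against 22.7 CPM and Brs3 at 1.10 against 2.74 CPM, so the tested members do not stand for the list. Beside each of these regional lists, 3.02% of all genes tested were higher and 7.19% lower. Of 10 arcuate nucleus genes, 5 were tested: Prox1 was higher, Npy and Tac2 lower. The 1 ventromedial gene tested of 6 was not called, and of 9 suprachiasmatic genes 3 were tested and Avp was lower. Nptx2, a ventromedial gene left out by the filter, led its list with 44 UMIs in Ppp1r17 neurons and is described under other observations. Nr5a1, the defining factor of the ventromedial nucleus, had 0 UMIs in the Ppp1r17 neurons, which allows up to 3.30 CPM (3 UMIs), and stood at 2.22 CPM in other neurons, so no difference was detectable at this depth. Hcrt and Pmch, peptides of the lateral hypothalamus, were at 14.3 against 216 CPM and 1.10 against 58.8 CPM. Of 9 genes of the preoptic area and GABAergic lineage 1 was tested, Dlx1, which was higher. No gene of the mammillary or lateral hypothalamic lists passed the filter. Of 8 telencephalic and thalamic genes only 2 were tested. These were Nrgn (-1.94), neurogranin, and Tcf7l2 (-2.98), a thalamic transcription factor, and both were lower, against 7.19% of all genes.

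Genes of the signalling around PPP1R17 were mostly not called. Of 16 genes of cGMP signalling, 8 were tested, and Gucy1a3, a soluble guanylate cyclase subunit (log2 difference -1.03), and Pde2a, a cyclic nucleotide phosphodiesterase (-0.87), were lower, while 7.19% of all genes were. Prkg1, the kinase that phosphorylates G-substrate, was at 214 against 163 CPM (0.46, SE 0.16, edgeR adjusted p=0.0526) and lay close to the threshold, which it passed among cells with at least 6 panel genes (0.67, edgeR adjusted p=0.00489). Of 20 subunits and regulators of protein phosphatases 1 and 2A, 14 were tested, with Ppp1r9a, neurabin (0.35), higher and Ppp2r2b (-0.51) lower (3.02% and 7.19% of all genes), neither of which held among cells with at least 6 panel genes. Pde2a kept its call in 6 and Ppp1r9a in 11 of the 16 fits that each left out 1 library. The medians of these lists were -0.48 and -0.03.

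Of 8 steroid receptor genes, 4 were tested. Esr1 was found in 19 Ppp1r17 neurons (6.48%) and in 8.68% of other neurons. Its level was 31.9 against 50.9 CPM (log2 difference -0.61, SE 0.31, edgeR adjusted p=0.252). As background, Esr1 was found in 2.75% of oligodendrocyte-like cells, which had a median of 798 UMIs. With cells thinned to 500 UMIs, Esr1 was found in 1.37% of Ppp1r17 neurons, 2.44% of other neurons and 1.19% of oligodendrocyte-like cells. At that depth its share in Ppp1r17 neurons was close to the background. Nr3c1, the glucocorticoid receptor, was the only 1 of the 4 that was higher, while 3.02% of all genes were. It was at 197 against 141 CPM (0.42, edgeR adjusted p=0.0408), a call kept in 7 of the 16 fits that each left out 1 library.

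Calcium-binding proteins included Hpcal1 (log2 difference 0.66), higher, and Calb2, calretinin (-1.44), Hpca, hippocalcin (-1.07), Necab1 (-1.02) and Cplx1, complexin 1 (-2.15), lower, among 13 tested with a median of -0.01, against 3.02% of all genes higher and 7.19% lower. The call of Necab1 was kept in 10 of the 16 fits that each left out 1 library. Among 12 clock genes tested only Rorb was higher. Of 19 glycolytic genes 4 were lower (median -0.24), of 84 nuclear genes of oxidative phosphorylation 5 were lower (median -0.12), against 7.19% of all genes, and of 82 ribosomal protein genes 5 were higher (median 0.13), against 3.02% of all genes. Among cells with at least 6 panel genes, 20 of 83 genes of oxidative phosphorylation were lower (median -0.22), against 4.01% of all genes there, and 5 of 78 ribosomal protein genes were higher, against 2.12%.

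Markers of cells other than neurons were lower in the Ppp1r17 neurons. All 6 oligodendrocyte markers tested were lower (median -2.19), as were 7 of 8 astrocyte, 4 of 5 endothelial and 2 of 3 polydendrocyte markers, and the single mural (Rgs5), ependymal (Col23a1) and fibroblast (Apod) marker tested. Of all genes tested, 7.19% were lower. No microglial marker passed the filter, and the 1 choroid plexus and pars tuberalis gene tested was not called. The 10 oligodendrocyte markers together ran from 466 through 775 to 1480 CPM in Ppp1r17 neurons and from 1184 through 2502 to 5816 CPM in other neurons, and the sum was lower in 16 of 16 libraries. Mbp, a myelin protein, led the list with 349 UMIs, and none of the 10 was at 0. The astrocyte list ran from 499 through 741 to 4260 CPM against 1294 through 2782 to 4552 CPM, led by Apoe with 283 UMIs. The endothelial list ran from 217 through 532 to 929 CPM against 622 through 1356 to 1863 CPM.

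Of the 10 named genes with the lowest differences, Tac2 and Oxt are peptides and the other 8, Mgp, Crip1, Cyr61, Ly6c1, Rgs5, Mal, Ifitm3 and Apod, are genes of vascular, glial or connective tissue cells, between -5.26 and -3.51. None of these 8 was abundant enough to be tested among cells with at least 6 panel genes. In that comparison 4990 genes were tested, 106 were higher (2.12%) and 200 lower (4.01%), and 1 of 3 oligodendrocyte, 0 of 5 astrocyte and 0 of 1 endothelial markers were lower. Of the 195 higher genes 188 were tested there and 75 were called again. Pdyn (2.003), Cck (1.75), Gal (1.38) and Peg10 (0.88) were among them, while Trhr and Nkx2-1 were too low to be tested.

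Immediate early genes, which neurons switch on within minutes of activity or stress, differed in direction between these comparisons. Among all neurons 14 were tested, of which Npas4, an activity-induced factor, was higher (log2 difference 0.90) and 11 were lower, with a median of -0.64, against 3.02% and 7.19% of all genes. Among cells with at least 6 panel genes 9 were tested, 6 were higher and none lower, with a median of 0.61, against 2.12% and 4.01% of all genes. Fos changed from 0.03 (edgeR adjusted p=0.925) to 1.16 (adjusted p=2.15e-14), and Fosb (-0.52 to 0.71), Egr1 (-0.61 to 0.57), Btg2 (-0.60 to 0.71) and Dusp1 (-0.47 to 0.61) passed the threshold in opposite directions. In the fits that each left out 1 of 16 libraries, Dusp1 kept its call in 8, Fosb in 9 and Btg2 in 12. Npas4 was higher in both, at 0.90 and 0.80. When all neurons were instead thinned to 1000 UMIs, Fosb (-0.90), Egr1 (-0.91), Btg2 (-1.12), Jun (-0.87) and Junb (-1.54) were lower. Dusp1 (-0.39) and Fos (0.08) were not called there. Dissociation was not varied in the design, and its part in these levels was not tested.

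**Figure D3:**
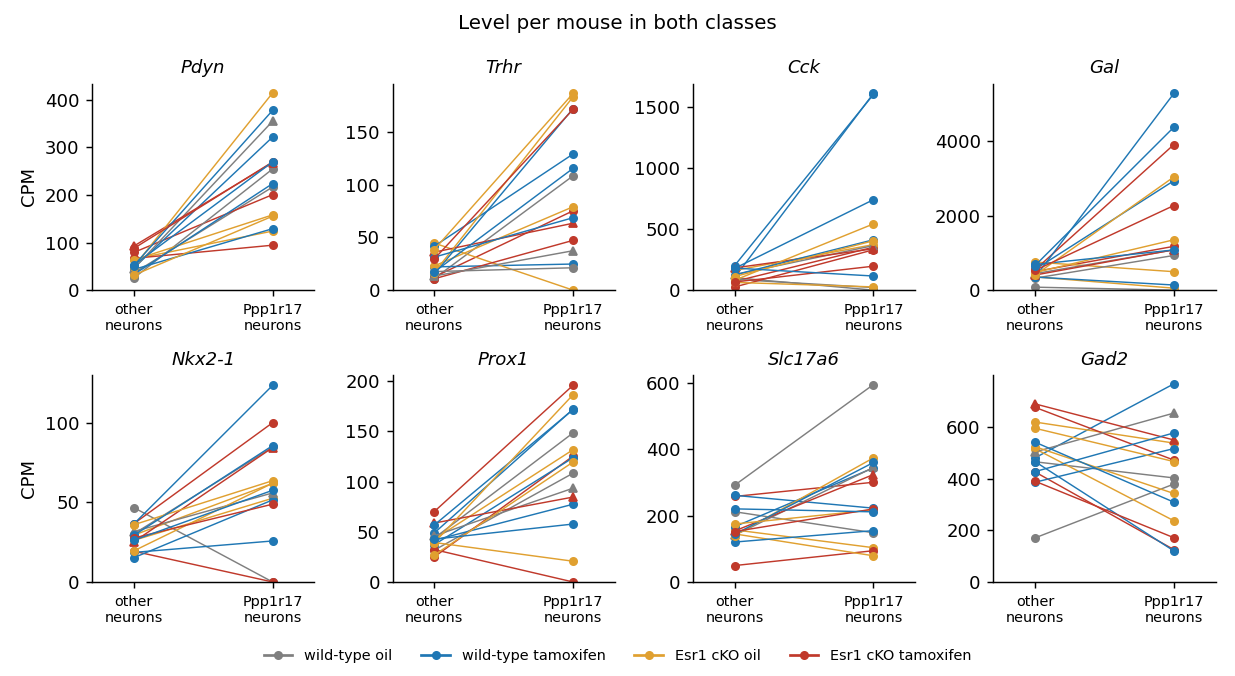
Levels in other neurons and Ppp1r17 neurons of the same library (y axis, CPM), with 1 panel each for Pdyn, Trhr, Cck, Gal, Nkx2-1, Prox1, Slc17a6 and Gad2, a line for each of 16 libraries coloured by group and triangles for the 2 libraries that stood apart. Pdyn is higher in Ppp1r17 neurons in 16 of 16 libraries, Cck and Gal in 12, Slc17a6 in 11 and Gad2 in 5.

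The Ppp1r17 neurons held glutamatergic and GABAergic cells. In the test between classes Slc17a6 was higher (279 against 176 CPM, log2 difference 0.57, SE 0.14, edgeR adjusted p=0.00291), which did not hold among cells with at least 6 panel genes (0.37, adjusted p=0.101) or without the libraries that stood apart (0.42). Gad1 (-0.56, edgeR adjusted p=0.0231) was lower, and Gad2 (-0.36, adjusted p=0.0566) and Slc32a1, the vesicular GABA transporter (-0.23, adjusted p=0.510), did not pass. Among cells with at least 6 panel genes Gad1 (-0.89, edgeR adjusted p=0.000259) and Gad2 (-0.67, adjusted p=0.000184) were both lower, as Gad2 was after thinning to 1000 UMIs (-0.52, adjusted p=0.0148). Gad1 and Gad2 were close to the threshold: Gad1 kept its call in 11 of the 16 fits that each left out 1 library, and Gad2 stayed short of significance in 11. Th, tyrosine hydroxylase of dopamine synthesis, was higher (1.296, edgeR adjusted p=0.000116), though in only 10 of 16 libraries. It was the only 1 called of 4 tested among 10 genes of other transmitters, while 3.02% of all genes were higher and 7.19% lower.

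Cell by cell, 100 of 293 Ppp1r17 neurons (34.1%, interval 28.7 to 39.9%) carried Slc17a6 without Gad1, Gad2 or Slc32a1, 130 (44.4%, 38.6 to 50.3%) carried at least 1 of these GABAergic genes without Slc17a6, 14 carried both kinds and 49 neither. In other neurons the shares were 14.6%, 39.5%, 2.96% and 42.9%, at a lower depth. As background, Gad2 was found in 1.18% and Gad1 in 0.817% of oligodendrocyte-like cells, which had a median of 798 UMIs. Per library the share with Slc17a6 alone ran from 0% (0 of 6 cells, Esr1 cKO tamoxifen 2) to 62.5% (5 of 8, wild-type oil 1), and the GABAergic share from 27.3% to 66.7%. This split was made after the data were seen and the values that follow are a description.

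The label's markers had higher summed levels in the glutamatergic cells, though Pdyn was found in 58, Grp in 18 and Fhl2 in 21 of these 100 cells, against 16.9%, 0.769% and 6.15% of GABAergic cells. Pdyn was at 537 CPM in the 100 Slc17a6 cells and 71.3 CPM in the 130 GABAergic cells, and was higher in the former in 14 of the 15 libraries that held both. Grp was at 196 against 2.30 CPM, Fhl2 at 91.6 against 18.4 CPM, Nmu, neuromedin U, at 72.6 against 9.20 CPM, and Nr2e1, the nuclear receptor tailless, at 85.3 against 18.4 CPM. In other neurons with Slc17a6 alone, Pdyn stood at 111, Grp at 20.1, Fhl2 at 10.5, Nmu at 11.01 and Nr2e1 at 2.87 CPM. These 5 genes were thus richer in glutamatergic Ppp1r17 neurons than in GABAergic ones or in other glutamatergic neurons. Nkx2-1 was at 107 against 39.1 CPM.

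Gal, Th, Penk, Ddc, Npy2r and Dlx1 had higher summed levels in the GABAergic cells. Gal was at 2888 CPM in GABAergic and 300 CPM in Slc17a6 cells, higher in the former in 13 of 15 libraries, though it was found in 30.8% of GABAergic and 23.0% of Slc17a6 cells, with overlapping intervals (23.0 to 39.5% and 15.2 to 32.5%), and 28.1% of its UMIs in all Ppp1r17 neurons came from 3 cells. Th was at 170 against 3.16 CPM, also higher in 13, and was found in 25.4% against 1.0% of cells. Penk, the enkephalin precursor, was at 407 against 101 CPM, Ddc, the decarboxylase that follows Th in dopamine synthesis, at 122 against 44.2 CPM, and Npy2r at 136 against 25.3 CPM. Dlx1, a homeobox factor of GABAergic neurons that was also higher between classes (log2 difference 0.96), was at 283 CPM with 123 UMIs, against 0 UMIs in the Slc17a6 cells. In other GABAergic neurons Gal was at 865 and Th at 57.7 CPM.

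Both kinds of cells shared another set. Rorb was at 262 CPM in Slc17a6 cells and 322 in GABAergic cells, Peg10 at 411 and 324, Prox1 at 142 and 101, Trhr at 123 and 82.8, Oprk1 at 79.0 and 62.1 and Cck at 442 and 467 CPM. In other neurons with the same transmitter genes, Rorb was at 78.5 and 187, Peg10 at 117 and 187, Prox1 at 24.9 and 45.7 and Trhr at 22.7 and 21.7 CPM. Cck reached its like sums from unlike numbers of cells, 35.0% of the Slc17a6 cells and 12.3% of the GABAergic cells.

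Detection within single cells gave a similar split for Pdyn, Grp and Th, but not for Gal. Of the 98 Pdyn cells 65 (66.3%) carried Slc17a6 and 22 (22.4%) Gad2, and of the 26 Grp cells 19 (73.1%) carried Slc17a6, 16 (61.5%) Cck and 2 Gad2. Of the 37 Th cells 30 (81.1%) carried Gad2, 27 (73.0%) Gal, 25 (67.6%) Dlx1 and 1 Slc17a6. Of the 78 Gal cells 42 (53.8%) carried Gad2 and 29 (37.2%) Slc17a6. These shares also move with depth and are not tests.

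**Figure D4:**
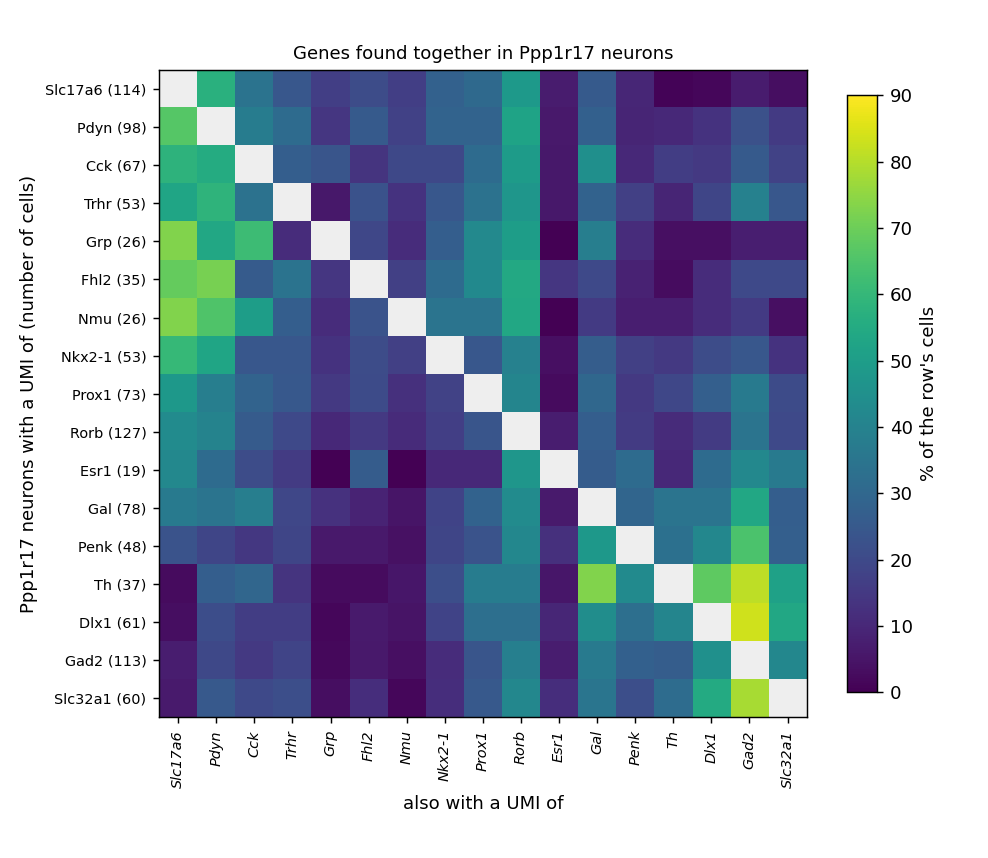
Co-detection among the Ppp1r17 neurons: percent of cells carrying the row gene that also carried the column gene, with the number of carriers beside each row gene. Most carriers of Pdyn, Grp, Fhl2 and Nmu also carried Slc17a6 (66.3 to 73.1%), and most carriers of Slc32a1, Dlx1 and Th also carried Gad2 (78.3 to 83.6%), with 8 cells carrying Slc17a6 and Gad2 at once.

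The number of Ppp1r17 neurons did not differ between groups by more than the spread of libraries. They made up 2.28, 2.07 and 6.71% of neurons in wild-type oil (3.69 ± 2.62, SD, n = 3), 1.55, 2.06, 3.35, 2.74 and 3.29% in wild-type tamoxifen (2.595 ± 0.782, n = 5), 2.53, 3.16, 3.87 and 1.93% in Esr1 cKO oil (2.87 ± 0.834, n = 4) and 2.14, 2.42, 5.14 and 3.09% in Esr1 cKO tamoxifen (3.20 ± 1.36, n = 4). All 4 groups overlapped, and the highest values were those of the libraries that stood apart. Tamoxifen minus oil was -1.09 percentage points in wild-type (two-sided exact permutation test p=0.464, smallest possible 0.0179) and 0.326 in Esr1 cKO mice (p=0.714, smallest possible 0.0286, exact permutation). Esr1 cKO minus wild-type over both treatments was 0.0284 (exact permutation p=0.968), and the 3 p-values adjusted together were 0.968. Without the libraries that stood apart these differences were 0.420, -0.322 and 0.256 points (exact permutation p=0.571, 0.629 and 0.485), so both tamoxifen differences changed sign. Labels do not give the day of dissociation, so successive fours of library numbers were used as a block. Whether these fours match days is not known. Within these fours, tamoxifen minus oil in wild-type mice was -0.731, -0.0142 and -3.36 points in the 3 fours that held both groups (mean -1.37, exact permutation within fours p=0.25, the smallest possible), the last of them with wild-type oil 3. In Esr1 cKO mice it was -0.388, -0.744, 1.28 and 1.16 points (exact permutation within fours p=0.5, smallest possible 0.125). A share counts cells past a UMI threshold, and fewer such neurons cannot be told apart from less Ppp1r17 RNA per neuron.

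Gene levels within the Ppp1r17 neurons were then compared between groups, with 6 to 42 cells and 18474 to 141963 UMIs behind a library. Reads from Drop-seq come from the 3′ end of Esr1, outside the part that Cre removes, so its level does not check the deletion. Esr1 stood at 54.1, 63.6 and 37.3 CPM in wild-type oil, at 0, 129, 17.2, 17.2 and 38.5 CPM in wild-type tamoxifen, at 0, 52.7, 7.96 and 0 CPM in Esr1 cKO oil, and at 50.1, 94.3, 35.2 and 0 CPM in Esr1 cKO tamoxifen. These values rest on 29 UMIs in all, the groups overlapped, and the gene was too low to be tested.

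Of 1297 genes tested in Ppp1r17 neurons, none passed adjusted p below 0.05 (0.0%) in edgeR for tamoxifen in wild-type mice, tamoxifen in Esr1 cKO mice, the difference between these effects, or genotype. At an unadjusted p below 0.05 the comparisons held 18, 33, 43 and 24 genes, and DESeq2 made 0 calls with 9, 23, 24 and 12 genes at that level. Genes from the 3 with the smallest p of each comparison are given by the rule, as not past the threshold.

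For tamoxifen in wild-type mice these were Ppia, cyclophilin A (log2 difference -0.93, edgeR adjusted p=0.997), Opcml, a cell adhesion molecule of the IgLON family (1.53, adjusted p=0.997), and Cck (2.29, adjusted p=0.997). Opcml stood at 54.1, 84.8 and 74.7 CPM with oil, from 1, 4 and 8 UMIs, and at 173, 155, 258, 223 and 231 CPM with tamoxifen. Genes were picked here by their p, so groups set apart in them are no further support. Cck stood at 0, 21.2 and 364 CPM with oil and at 1608, 1600, 740, 412 and 115 CPM with tamoxifen, where 1 tamoxifen library lay below the highest oil library. Leaving out 1 library at a time moved the Cck difference from 1.82 (without wild-type oil 2) to 5.65 (without wild-type oil 3). In Esr1 cKO mice Opcml stood at 248, 52.7, 207 and 342 CPM with oil and 100, 236, 155 and 147 CPM with tamoxifen, and the difference between the effects, -2.01, did not pass the test either (edgeR adjusted p=0.998).

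For tamoxifen in Esr1 cKO mice the genes included Usp34, a deubiquitinase (log2 difference -1.24), and Gstp1, a glutathione transferase (1.37), both at edgeR adjusted p=0.998. Usp34, picked in the same way, stood at 372, 448, 342 and 590 CPM with oil and at 50.1, 189, 211 and 269 CPM with tamoxifen, the lowest from 2 UMIs. For the difference between the effects they were Opcml, Nrxn3, a presynaptic neurexin (-1.67), and Cd200, a membrane glycoprotein (1.14). For genotype they were Avp (-1.999), Fosb (1.09) and Snrpn, an imprinted splicing factor (-0.46), at edgeR adjusted p=0.998 or above. Avp stood at 0, 2501 and 2903 CPM in wild-type oil, at 1187, 516, 516, 2265 and 442 CPM in wild-type tamoxifen, at 434, 263, 335 and 777 CPM in Esr1 cKO oil and at 852, 0, 91.6 and 122 CPM in Esr1 cKO tamoxifen. Genotypes overlapped, and the highest values were in 3 wild-type libraries. Of the 832 Avp UMIs 221 were in 1 cell, and only wild-type oil 3, with 311 UMIs, had that many in all.

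Pdyn and Gal, which were higher in Ppp1r17 neurons than in other neurons, overlapped between groups. Pdyn was at 275 ± 71.5 CPM in wild-type oil (n = 3), 264 ± 94.95 in wild-type tamoxifen (n = 5), 213 ± 135 in Esr1 cKO oil (n = 4) and 208 ± 82.2 in Esr1 cKO tamoxifen (n = 4). Tamoxifen minus oil for Pdyn was -0.07 on the log2 scale in wild-type mice (SE 0.39, edgeR adjusted p=0.997). Gal was at 672 ± 587, 2767 ± 2166, 1237 ± 1321 and 2114 ± 1317 CPM in the same order. A single cell held 205 of the 1454 Gal UMIs, and only wild-type tamoxifen 2 and 5 had that many in all, at 205 and 228 UMIs. With no filter on low counts, Cck (2.17) and Gal (1.79) were called for tamoxifen in wild-type mice (edgeR adjusted p=0.00173 each), while with the filter neither was. Of 6 neuropeptide precursors and 6 immediate early genes tested, none was called in any of the 4 comparisons, with medians from -1.20 to 1.26 and from -0.52 to 0.47.

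**Figure D5:**
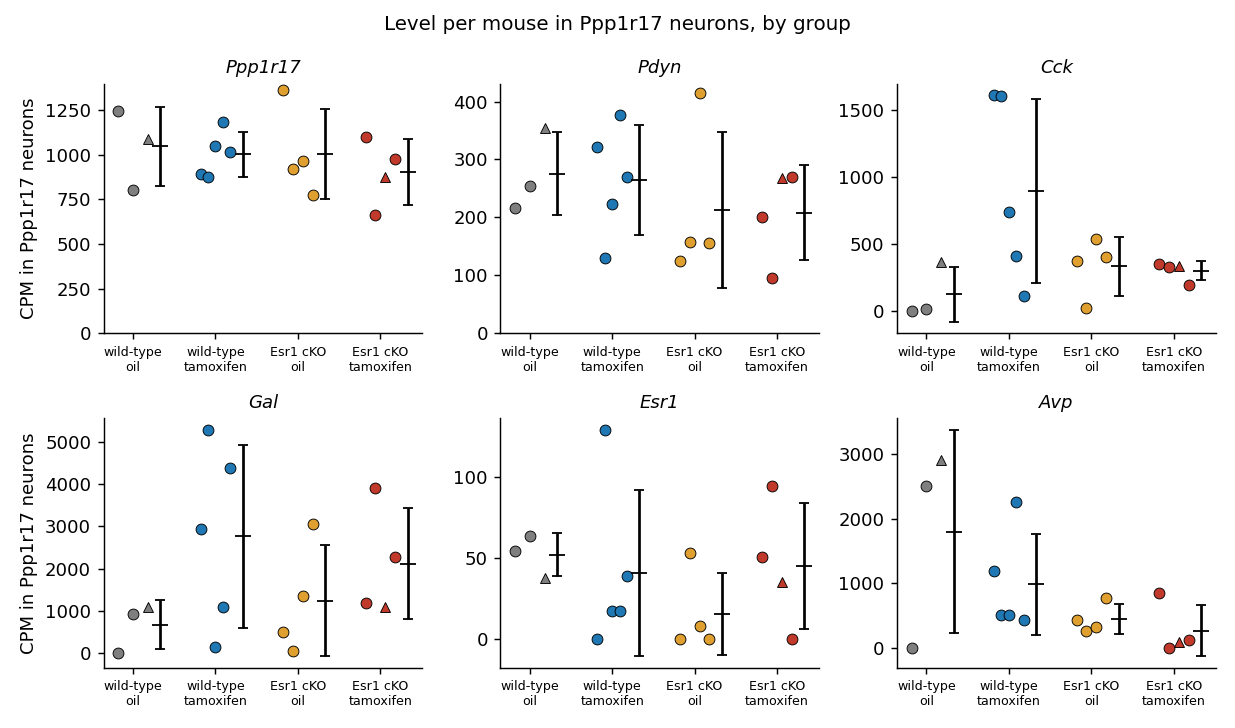
Levels of Ppp1r17, Pdyn, Cck, Gal, Esr1 and Avp in Ppp1r17 neurons (y axis, CPM) by group (x axis), with a point per library, triangles for the 2 libraries that stood apart and bars for the mean ± SD. Pdyn is similar in the 4 groups, from 208 to 275 CPM on average, whereas Cck and Gal spread widely within groups.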

How the data were processed

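Single-cell suspensions of hypothalamus-POA were profiled by Drop-seq, 1 library per mouse, with 4 mice on each of 4 days and all groups in parallel. The authors deposited raw UMI counts per gene and barcode, without normalization and without pooling. The submitters' processing notes name STAR 2.6, Seurat and mm10, while the counting program and annotation are not given in the sources used here. Libraries held 2634253 to 8038158 UMIs in 146538 barcodes in all. Cells were kept by the limits stated in the report, which are those of the study, and doublets were kept: Scrublet in scanpy 1.11.5 called 476 kept cells (0.855%), 4 of them Ppp1r17 neurons.

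Counts were summed per library and class. Classes were compared within libraries, and groups over Ppp1r17 neurons, in edgeR 4.0.16 (R 4.3.3), with TMM, filterByExpr, the quasi-likelihood test and Benjamini-Hochberg adjustment over all genes tested, after a check on simulated data. DESeq2 1.42.0 was an alternative. In the comparison of classes, Ppp1r17, the panel genes and mitochondrial genes were left out of the counts of calls because the rule used them. Between groups, Ppp1r17 and the 8 panel genes were among the genes tested. Shares were compared by exact permutation (scipy 1.17.1). CPM are a gene's UMIs in the summed cells over all their UMIs, scaled to the usual CPM total. Binomial intervals are exact Clopper-Pearson and, like the limit of 3 UMIs that a count of 0 allows, cover counting error only. Labels do not say whether libraries of a group came from separate litters. Named genes are the 12 highest and 10 lowest log2 differences among called genes with at least 20 UMIs in the higher class and the same direction in at least 14 libraries, and, for groups without calls, the 3 smallest p-values. The cells and gene lists were chosen with earlier results of these data known. Gene positions are those of GRCm38 with the GENCODE annotation. Some results for genes that this rule or the lists would name are not reported here.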

Additional observations from a re-analysis of the deposited data

Results flagged for a closer look

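Among 90 sets of levels within Ppp1r17 neurons (a gene in a group of 4 or 5 libraries), 9 had a library farther from the rest of its group than Dixon's 95% critical value allows. Chance alone gives about 1 in 20 where values are normal, a rate that need not hold for levels from few UMIs. In Esr1 cKO oil the flagged sets were Pdyn, with a library at 414.1 CPM above 124 to 158 CPM in the others, Esr1, at 52.67 CPM (2 UMIs) above 0 to 7.96 CPM, Tac2, at 15.93 CPM (2 UMIs) with the other 3 at 0, and Nkx2-1, at 52.67 CPM (2 UMIs) just below 62.02 to 63.71 CPM. In Esr1 cKO tamoxifen they were Avp, with a library at 852.0 CPM above 0 to 122 CPM, Cck, at 195.8 CPM below 330 to 351 CPM, Peg10 at 225.5 CPM and Snrpn at 697.4 CPM. In wild-type tamoxifen it was Fosb, at 51.48 CPM below 189 to 231 CPM. The causes were not tested.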

How the results depend on the processing

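In Ppp1r17 neurons against other neurons, 195 genes were higher and 465 lower, and the number higher became 123 with no filter on low counts, 50 with at least 3 UMIs of Ppp1r17, 68 with a mitochondrial share under 5%, 29 after thinning to 1000 UMIs, 106 with at least 6 panel genes, 53 in oil libraries and 77 in wild-type libraries alone. The number lower became 1815 with no filter, 218 with a mitochondrial share under 5%, 138 after thinning and 200 with at least 6 panel genes. Leaving out each library in turn gave 146 to 213 higher and 408 to 568 lower, and leaving out both libraries that stood apart 131 and 366, of which 123 and 344 were among the 195 and 465. With no filter the median over all genes moved to -0.41, and with at least 3 UMIs of Ppp1r17 to -0.22. With at least 6 panel genes Fosb (0.71), Egr1 (0.57), Btg2 (0.71), Dusp1 (0.61) and Cpe (0.10) changed sign, as did Scg2 (-0.07) with at least 3 UMIs of Ppp1r17, where Gal (0.29) and Nkx2-1 (0.95) lost their calls. Over the genes followed individually, 1669 values under these alternatives kept direction and call, 189 lost the call, 25 gained it, 6 changed sign with a call and 11 changed sign without one. Comparisons of groups had no calls, except that with no filter tamoxifen gave 2 higher and 5 lower in wild-type mice, 5 higher and 3 lower in Esr1 cKO mice, 5 and 8 for the difference between these effects, and 1 lower (Avp, -2.06) by genotype. Those 2 higher were Cck (2.17, edgeR adjusted p=0.00173) and Gal (1.79, adjusted p=0.00173). Npvf, Sst and the haemoglobin genes among the others came mostly from 1 cell each. Single cells also held 205 of 1454 Gal, 53 of 417 Cck and 221 of 832 Avp UMIs. Without the libraries that stood apart 1 gene, Hbb-bs, was called (6.10, Esr1 cKO tamoxifen, edgeR adjusted p=0.000903), with 262 of 322 UMIs in 1 cell. Leaving out each library in turn gave 0 to 0 calls for groups, as did a replicate block of successive fours of library numbers (0 calls). No label ties this block to the days of dissociation, so day was not adjusted for by name. For the share this block gave -1.37, 0.326 and 0.0284 points for the comparisons below, where its smallest possible p was 0.25 and 0.125 for tamoxifen, so that no call could be made. For the share of Ppp1r17 neurons, the wild-type tamoxifen difference ran from -1.90 to 0.420 percentage points with each library left out (0.420 without those that stood apart), the Esr1 cKO one from -0.322 to 0.679 (-0.322 without them and -0.266 with at least 3 UMIs of Ppp1r17), and the genotype one from -0.273 to 0.557 (-0.117 with at least 3 UMIs and -0.000718 without shared barcodes). The causes of these changes were not tested. Leaving out the apart libraries from gene tests, the 6 panel genes, removing shared barcodes and the block for the share were chosen after seeing the data, and a pair of other libraries named by an earlier account (wild-type oil 2 and Esr1 cKO tamoxifen 2) gave 165 higher and 528 lower. With 6 to 42 cells per library, 1297 genes could be tested between groups.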

Other observations

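Some peptide precursors came from very few Ppp1r17 neurons. Npvf, the precursor of RFamide-related peptides of the dorsomedial nucleus, had 354 UMIs in 2 cells, 341 of them in 1 cell of Esr1 cKO tamoxifen 3. Vip, vasoactive intestinal peptide, had 28 of 29 UMIs in 1 cell, Sst 84 of 87, Pomc, proopiomelanocortin, 128 of 246 in 1 cell and Cartpt, the CART peptide precursor, 166 of 443. Avp had 221 of 832 and Gal 205 of 1454 UMIs in 1 cell. Pdyn was spread more evenly, with at most 13 of its 249 UMIs in a cell and 13.2% in its top 3 cells, and Oxt had 1 UMI in each of 18 cells.

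Haemoglobin transcripts were concentrated likewise. Of 322 UMIs of Hbb-bs in the Ppp1r17 neurons 262 were in 1 cell of Esr1 cKO tamoxifen 1, as were 180 of 205 UMIs of Hba-a1 and 216 of 235 of Hba-a2.

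Nptx2, a neuronal pentraxin on the ventromedial list that the filter on low counts left out, was found in 12.3% of Ppp1r17 neurons and 2.26% of other neurons, at 48.4 against 12.1 CPM. These shares are not matched for depth, which had a median of 2720 against 1704 UMIs. Tekt1, tektin 1, was at 139 CPM in Slc17a6 and 85.1 CPM in GABAergic Ppp1r17 neurons, against 18.4 and 43.2 CPM in other neurons of those kinds, and was picked out after its values were seen.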
